A study of Mus musculus with 6 samples.

Results

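The 55 genes described here encode keratin-associated proteins, the matrix proteins of the hair shaft, and were measured in 6 chemically induced mouse skin tumours. They are all the genes whose name in the array files begins with Krtap: 58 of 56605 non-control probes, and 55 of 37008 features once each gene is read from its brightest probe. The tumours came from male mice, 3 labelled P2ry6+/+ (here WT1, WT2 and WT3) and 3 labelled P2ry6-/- (here KO1, KO2 and KO3). P2ry6 encodes a receptor for uridine diphosphate, and the comparison asks what differs between tumours with and without it. Both genotypes (12 mice each) received the same carcinogenesis protocol on the shaved back, with 195 nmol of the mutagen DMBA in 200 uL of acetone and then 16 nmol of the promoter TPA 2 times a week to week 22. The removed part of P2ry6 is not given in the labels. They also do not tie each tumour to a mouse of its own, and p-values then reflect only the spread among these tumours, which may be technical. Each sample, 0.2 ug of RNA, was labelled with Cy3 and hybridised to a single-colour Agilent array.

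A hair shaft is built from keratin filaments embedded in a matrix of keratin-associated proteins. These small proteins are made late in hair shaft differentiation, in the cortex and cuticle of growing follicles, and cysteine-rich members are cross-linked to the hair keratins by disulfide bonds. By composition they fall into high sulfur, ultrahigh sulfur and high glycine-tyrosine proteins, and the first number of a gene name gives its subfamily. Keratinocytes between the follicles do not build this matrix.

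Values are log2 of the processed signal minus the array's 75th percentile, so 0 lies at that percentile, and a difference is the mean of the tumours labelled knockout minus that of the tumours labelled wild-type. A gene was "above background" on an array where the scanner software flagged it as well above background. The number of arrays limits the precision. Of the non-control spots, 54.2% to 59.4% were above background on each array, and the 75th percentile of the signal (units of brightness) was 322 to 368 for the tumours labelled wild-type and 277 to 299.6 for those labelled knockout. The wild-type arrays lay in slide rows 1, 1 and 2 and the knockout arrays in rows 2, 3 and 3, so only row 2 holds both genotypes, in WT3 and KO1. P2ry6 was not lower by its mean where the label says knockout. Its brighter probe gave 0.38, 0.33 and -0.21 in WT1, WT2 and WT3 and 0.57, 0.70 and 0.45 in KO1, KO2 and KO3, a difference of 0.41 (SE 0.20, limma adjusted p = 0.450), and a probe outside the removed part checks nothing. Every direction below therefore follows the labels.

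Krtap genes were detected most widely in WT1 and WT2. These tumours had 52 and 54 of the 55 genes above background, WT3 had 28, and KO1, KO2 and KO3 had 22, 41 and 22. Over all probes of the array the share above background lay between 52.2% and 57.5%. The mean level of the 55 genes was 0.21 in WT1, 1.66 in WT2 and -3.12 in WT3, against -3.42 in KO1, -2.09 in KO2 and -3.58 in KO3. WT3 thus lay with the tumours labelled knockout, and KO2 lay above WT3. In bulk tissue, fewer hair-forming cells and less of this RNA per cell cannot be told apart. WT2 held the highest value of the 6 tumours for 51 of the 55 genes, and WT1 the second highest for 45. KO2 was the highest of the knockout tumours for 31 genes and lay above WT3 for 48, while WT3 lay below all 3 knockout tumours for 26. These ranks include values below background, which do not order the tumours. WT3 had only 28 genes above background, and 14 genes were above background in no knockout tumour. In Krtap13, above background nowhere, WT3 (-6.18) also lay below KO1, KO2 and KO3 (-5.85, -5.92 and -5.99). WT1 and WT2, the tumours with the high levels, are also the arrays of slide row 1, so for them row and tumour cannot be told apart. Because WT3 stands apart from WT1 and WT2, comparisons are given with and without it. That choice was made with its low Krtap values known, so values without WT3 lean towards lower levels in the knockout tumours by construction and support nothing.

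**Figure D1:**
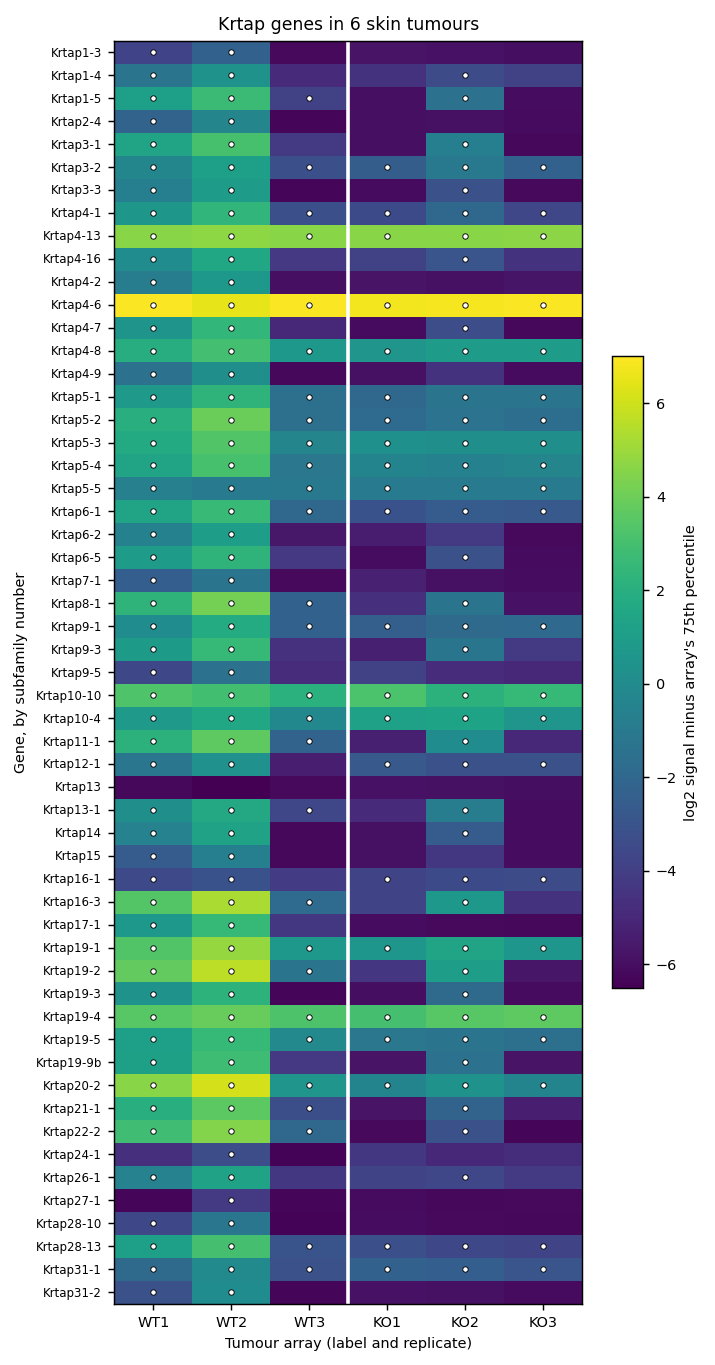
Level of each Krtap gene (rows, by subfamily number) in each tumour (columns), as log2 signal minus the array's 75th percentile; a white dot marks a value well above background, and colours should be compared along a row, since different probes differ in brightness. The WT1 and WT2 columns are bright in most rows, KO2 is intermediate, and a few rows, such as Krtap4-13 and Krtap4-6, have nearly the same colour in all 6 tumours.

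**Figure D2:**
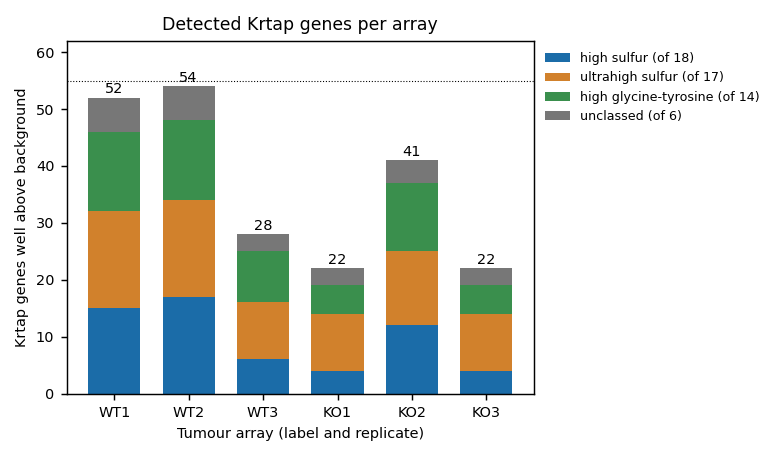
Number of Krtap genes well above background on each array (bars from 0, coloured by protein class); the dotted line marks the 55 genes of the family. The bars reach 52, 54 and 28 in the tumours labelled wild-type and 22, 41 and 22 in those labelled knockout.

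The detection patterns were few. There were 20 genes above background in all 6 tumours, 11 in WT1, WT2 and KO2, another 11 in WT1 and WT2 alone, and 8 in the 3 wild-type tumours and KO2. Krtap12-1 and Krtap16-1 were above background everywhere except WT3. Krtap24-1 and Krtap27-1 were above background in WT2 only, and Krtap13 in no tumour. In all, 13 genes were above background in some tumour labelled wild-type and in none labelled knockout.

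By the means, 50 of the 55 genes were lower in the tumours labelled knockout and 5 were higher. The median difference was -2.83 on the log2 scale, or -2.11 with values below background raised to the lowest level measured above it, against 0.19 over all 37008 features, of which 34.2% were lower. A gene was tested when it was above background in all 3 tumours of at least 1 genotype, which 30 of the 55 were. Of these, 8 passed only through the wild-type tumours, so the tested genes had to lean that way and their counts support nothing alone. In the limma fit over 19754 features, 0 of the 30 passed the adjusted threshold of 0.05, where 0.162% of all tested features did (0.111% were called lower). At an unadjusted p under 0.05 with at least a 2-fold difference there were 10 Krtap genes, all lower, where 2.38% of all tested features were called lower and 2.05% higher. They were Krtap22-2, Krtap19-5, Krtap6-1, Krtap20-2, Krtap8-1, Krtap21-1, Krtap28-13, Krtap19-2, Krtap5-2 and Krtap11-1. The genotypes did not overlap for 7 of the 55 genes, 6 of them lower in the tumours labelled knockout. Among these, Krtap13 and Krtap17-1 were not tested. The tested ones were Krtap6-1, Krtap19-5, Krtap20-2, Krtap22-2 and Krtap28-13, all lower. Of the tested features, 7.36% were lower without overlap and 19.5% were without overlap in either direction, so only the tested genes compare with these shares.

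The counts depended on single arrays and on the slide row. Without WT3, 52 Krtap genes were tested and 5 passed the adjusted threshold, all lower, where 0.307% of 20208 features were called and 0.257% were called lower. At an unadjusted p under 0.05 with at least a 2-fold difference there were 45, all lower, where 3.01% of features were called lower and 1.73% higher. All 52 were above background in WT1 and WT2, the wild-type arrays that the filter then read. The 5 genes were Krtap17-1, Krtap4-2, Krtap6-1, Krtap20-2 and Krtap28-13, of which Krtap17-1 and Krtap4-2 were above background in no knockout tumour and entered through WT1 and WT2 alone. The count of 10 at the unadjusted threshold was 3 without WT1, without WT2, without KO1 or without KO3. With the slide row as a block, an alternative added after seeing the data, row 2 alone informs the genotype and each difference is KO1 minus WT3. The median over the 55 Krtap genes, values below background included, was then 0.14, in place of -2.83. Over the 30 tested Krtap genes it was -0.20, in place of -2.07, beside 0.02 over all tested features. In that fit 0 Krtap genes passed the limma adjusted threshold, as did 0 of all features. At an unadjusted p under 0.05 with at least a 2-fold difference there were 2 of 30 Krtap genes, Krtap10-10 and Krtap12-1, both higher. By that rule 1390 of 19754 features were called, 753 higher and 637 lower, a share near that of the Krtap genes. The 10 genes named above kept their negative sign, while those of Krtap3-2, Krtap5-3, Krtap5-4, Krtap5-5, Krtap31-1 and 4 others turned.

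**Figure D3:**
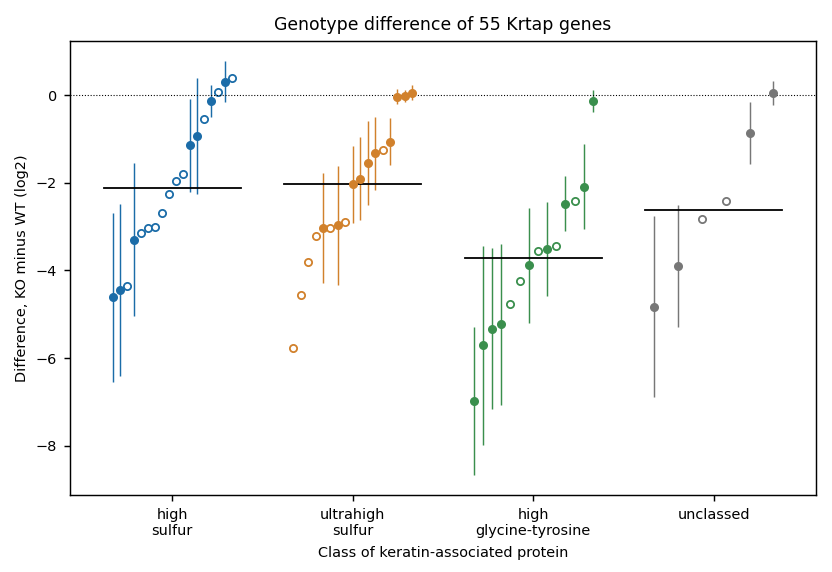
Difference of each of the 55 Krtap genes (log2, labelled knockout minus labelled wild-type, 3 tumours each), by protein class; filled points were tested and carry the limma SE as a bar, open points were not tested, and the black lines are class medians. The class medians lie at -2.12 (high sulfur), -2.04 (ultrahigh sulfur), -3.73 (high glycine-tyrosine) and -2.62 (unclassed), and in each class 1 or more points lie at about 0.

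The high glycine-tyrosine genes, subfamilies 6, 7, 8 and 19 to 22, encode small proteins rich in glycine and tyrosine that are made in the hair cortex. All 14 were lower by the means, with a median difference of -3.73. Of the 10 genes at an unadjusted p under 0.05 with at least a 2-fold difference, 7 belong to this class, which is 7 of its 9 tested genes. By that rule 2.38% of all tested features were called lower. Krtap8-1, Krtap19-2, Krtap21-1 and Krtap22-2 were tested only through the wild-type tumours, so this count supports nothing alone. The single member of subfamily 22, Krtap22-2, had the smallest p of the family. It measured 2.84, 4.47 and -1.93 in WT1, WT2 and WT3 and -6.14, -3.17 and -6.25 in KO1, KO2 and KO3. The genotypes did not overlap, and among the knockout tumours only KO2 was above background. The difference was -6.98 (SE 1.69, limma adjusted p = 0.213), between a wild-type mean of 1.79 ± 3.33 (SD, n = 3) and a knockout mean of -5.18 ± 1.75 (SD, n = 3).

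Krtap19-5, on chromosome 16, measured 1.11, 2.54 and -0.16 in the wild-type tumours and -1.12, -1.31 and -1.52 in the knockout tumours. It was above background in all 6 tumours and the genotypes did not overlap, with a difference of -2.48 (SE 0.62, limma adjusted p = 0.229). Its subfamily was not uniform. Krtap19-4, a neighbour on the same chromosome, stayed between 3.03 and 3.89 in all 6 tumours. Krtap19-1 was above background throughout, at 3.31, 4.85 and 0.71 against 0.59, 1.40 and 0.59, so that WT3 lay among the knockout tumours (difference -2.10, SE 0.97, adjusted p = 0.420). Krtap19-2 measured 3.77, 5.68 and -1.28 against -4.35, 1.08 and -5.69. Here KO2 lay above WT3, and the difference of -5.71 had an SE of 2.28 (adjusted p = 0.362). Its dimmer probe, above background on 3 arrays, differed by -3.64. Krtap19-3 and Krtap19-9b, described after their values were seen, were above background in WT1, WT2 and KO2 only.

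Krtap6-1 measured 1.39, 2.66 and -1.92 in the wild-type tumours and -3.12, -2.57 and -2.72 in the knockout tumours. All 6 values were above background and the genotypes did not overlap (difference -3.52, SE 1.07, limma adjusted p = 0.277). Krtap6-5 and Krtap6-2 had differences of -4.76 and -3.57 and were not tested, and Krtap6-2 was at least 4.51-fold lower, a bound set against the background level of the knockout arrays, where it was never above background. Krtap8-1 measured 2.29, 4.19 and -2.31 against -4.67, -1.31 and -5.83. KO2 again lay above WT3 (difference -5.33, SE 1.83, adjusted p = 0.310). Krtap21-1 likewise had KO2 above WT3, at 2.02, 3.60 and -3.27 against -5.77, -2.19 and -5.39 (difference -5.23, SE 1.84, adjusted p = 0.317). Krtap7-1 was above background in WT1 and WT2 alone and was at least 1.48-fold lower by the same kind of bound.

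Krtap20-2 was read by 2 probes. The brighter one measured 4.58, 6.13 and 0.56 in the wild-type tumours and -0.42, 0.45 and -0.41 in the knockout tumours. The genotypes did not overlap, though WT3 and KO2 lay 0.12 apart (difference -3.89, SE 1.31, limma adjusted p = 0.304). The other probe differed by -3.58. These probes also list the RefSeq genes Gm35257 and Gm35091, so related transcripts may share the signal. Without WT3, Krtap6-1 differed by -4.83 (SE 0.41) and Krtap20-2 by -5.48 (SE 0.53).

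The probes of this class show what the arrays read. The 4 below, 60 bases each, are given 5′ to 3′ as the files list them, with mm9 positions; capitals mark the 7-base unit TATGGCT, in which TAT and GGC are codons of tyrosine and glycine.
Krtap20-2 (chr16:89206222-89206281): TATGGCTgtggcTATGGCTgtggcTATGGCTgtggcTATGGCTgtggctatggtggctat
Krtap19-2 (chr16:88874321-88874380): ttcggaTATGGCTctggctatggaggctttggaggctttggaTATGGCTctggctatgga
Krtap21-1 (chr16:89403912-89403971): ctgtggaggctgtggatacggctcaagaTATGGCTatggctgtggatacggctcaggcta
Krtap8-1 (chr16:89487973-89488032): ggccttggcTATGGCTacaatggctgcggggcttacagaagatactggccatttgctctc
Searched on both strands, the unit stood in 9 of the 58 Krtap probes (15.5%) and in 0.768% of all 56605 probes. Of those 9 probes, 4 were above background in all 6 tumours.

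The high sulfur genes, subfamilies 1 to 3, 10 to 15, 24, 26 and 27, encode cysteine-rich proteins of the cortex and cuticle. Their median difference was -2.12 over 18 genes, 7 of which were tested, and Krtap11-1 was the only tested one at an unadjusted p under 0.05. It measured 2.20, 3.64 and -2.22 in the wild-type tumours and -5.32, 0.07 and -4.97 in the knockout tumours. KO2 lay above WT3, so the genotypes overlapped (difference -4.61, SE 1.92, limma adjusted p = 0.378). Krtap1-5 followed the same course, at 1.13, 2.70 and -3.91 against -5.95, -1.39 and -6.07 (difference -4.44, SE 1.96, adjusted p = 0.400). Krtap13-1 did as well, at 0.24, 1.64 and -3.64 against -4.88, -0.76 and -6.03 (difference -3.30, SE 1.75, adjusted p = 0.477).

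In subfamily 3, whose proteins belong to the cortex, Krtap3-2 was above background in all 6 tumours, at -0.31, 1.099 and -3.23 against -2.52, -1.04 and -2.33. WT3 was the lowest of the 6 tumours, and the difference of -1.15 (SE 1.06, limma adjusted p = 0.694) was about the size of its error. Krtap3-1 and Krtap3-3 were above background in WT1, WT2 and KO2 and differed by -4.37 and -3.14. Krtap1-4, Krtap14 and Krtap26-1 had that detection pattern too, with differences of -1.96, -3.02 and -2.70. Krtap2-4 (at least 1.88-fold lower) and Krtap15 (at least 1.65-fold lower) were above background in WT1 and WT2 only, and Krtap1-3 had that pattern with a difference of -1.80. No bound holds for Krtap1-3, whose wild-type mean of -4.08 lay below the mean background level of the knockout arrays, -3.88. Krtap24-1, Krtap27-1 and Krtap13 lay outside the rule for named genes. Krtap13 was above background in no tumour, so its difference of 0.38 is one between background values.

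Subfamilies 10 and 12, cysteine-rich proteins of the hair cuticle encoded on chromosome 10, had median differences of 0.08 and -0.94. Krtap10-10 measured 3.26, 2.90 and 2.12 in the wild-type tumours and 3.16, 2.15 and 2.56 in the knockout tumours (difference -0.14, SE 0.37, limma adjusted p = 0.904). Krtap10-4 measured 0.81, 1.60 and -0.22 against 1.22, 1.32 and 0.55, a difference of 0.30 (SE 0.47, adjusted p = 0.826) that turned to -0.18 without WT3. Neither gene separated the genotypes. A further probe that the files describe as Krtap10-4, at chr10:77288860-77288919 beside the member's own at chr10:77288970-77289029 (mm9), is listed under a transcript number and is not counted in the family. It disagreed, at -0.16, 1.82 and -2.98 against -3.46, -4.02 and -3.47, a difference of -3.21. Krtap12-1 measured -1.18, 0.31 and -5.36 against -2.72, -3.17 and -3.15. WT3 was the only tumour below background, and the difference of -0.94 (SE 1.33, adjusted p = 0.806) became -2.58 without WT3.

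The ultrahigh sulfur genes, subfamilies 4, 5, 9 and 17, encode the proteins richest in cysteine. Their median difference was -2.04 over 17 genes, of which 10 were above background in all 6 tumours, and 1 of the 10 tested genes was at an unadjusted p under 0.05. That gene, Krtap5-2, measured 1.98, 3.94 and -1.53 in the wild-type tumours and -1.76, -1.34 and -1.60 in the knockout tumours. WT3 lay among the knockout tumours, which themselves spanned under 1 log2 unit (difference -3.03, SE 1.25, limma adjusted p = 0.376). Krtap5-1 measured 0.73, 2.28 and -1.50 against -1.98, -1.33 and -1.31, again with WT3 among the knockout tumours (difference -2.04, SE 0.88, adjusted p = 0.388). Its dimmer probe, above background on 3 arrays, disagreed in size, with a difference of -4.49.

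Subfamily 5, made in the hair cuticle and encoded on chromosome 7, was above background in all 6 tumours for all 5 genes. Krtap5-3 measured 1.75, 3.32 and -0.34 against 0.29, 0.21 and 0.24, and Krtap5-4 measured 1.39, 3.05 and -1.15 against -0.40, -0.58 and -0.35. In both, WT3 was the lowest of the 6 tumours, with a difference of -1.33 in Krtap5-3 (SE 0.83, limma adjusted p = 0.547) and of -1.54 in Krtap5-4 (SE 0.96, adjusted p = 0.544). Krtap5-5 stayed between -1.05 and -0.62. These probes are not independent of one another: those of Krtap5-3 and Krtap5-4 share a run of 39 bases, and that of Krtap5-2 shares 20 with the dimmer probe of Krtap5-1. The probe of Krtap5-3 also lists Krtap5-2, that of Krtap5-2 lists Krtap5-5, and the brighter one of Krtap5-1 lists Gm4559.

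Krtap17-1, a cuticle gene on chromosome 11 and the single member of its subfamily, had the largest bound. It measured 0.69, 2.57 and -4.31 in the wild-type tumours and -6.05, -6.14 and -6.20 in the knockout tumours. It was above background in WT1 and WT2 alone and the genotypes did not overlap. It was at least 11.5-fold lower in the tumours labelled knockout and was not tested, since WT3 was below background. Without WT3 its difference was -7.76. The small spread of the knockout values (SD 0.074, n = 3) is that of the background level.

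Subfamily 4, encoded in the cluster on chromosome 11, held both large and flat differences, from -4.55 to 0.05. Krtap4-2 measured -0.76, 0.70 and -5.93 against -5.79, -5.87 and -5.74, and was at least 3.68-fold lower. It was above background in WT1 and WT2 only, and its difference without WT3 was -5.77. Krtap4-7 was above background in KO2 as well (difference -4.55), and Krtap4-1 in all 6 tumours, at 0.66, 2.38 and -3.22 against -3.47, -1.98 and -3.65 (difference -2.97, SE 1.35, adjusted p = 0.412). Krtap4-8 differed less, at 1.89, 2.97 and 0.68 against 0.56, 0.88 and 0.90 (difference -1.07, SE 0.54, adjusted p = 0.452). Krtap4-9 and Krtap4-16, named after their values were seen, differed by -3.03 and -2.89. Krtap4-9 was above background in WT1 and WT2 only and was at least 2.63-fold lower, while Krtap4-16 was above background in KO2 as well.

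Krtap4-13 and Krtap4-6 did not follow the family. Krtap4-13 measured 4.60, 4.73 and 4.59 in the wild-type tumours and 4.62, 4.62 and 4.65 in the knockout tumours (difference -0.01, SE 0.14, limma adjusted p = 0.978). Krtap4-6 measured 6.90, 6.52 and 6.93 against 6.79, 6.82 and 6.91 (difference 0.05, SE 0.17, adjusted p = 0.921). In Krtap4-6, WT2, the tumour with the highest value for 51 genes, was the lowest of the 6. The probes of these genes and of Krtap4-8 are shown because they are built from 1 repeated unit and share runs of bases. That of Krtap4-13 shares 21 bases with that of Krtap4-6 and 18 with that of Krtap4-8. Capitals mark AGCTGCTG, in which TGC is a codon of cysteine.
Krtap4-13: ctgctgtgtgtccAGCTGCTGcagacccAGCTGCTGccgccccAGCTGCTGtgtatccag
Krtap4-6 (chr11:99526996-99527055): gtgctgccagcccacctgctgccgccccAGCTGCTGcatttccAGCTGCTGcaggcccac
Krtap4-8 (chr11:99641467-99641526): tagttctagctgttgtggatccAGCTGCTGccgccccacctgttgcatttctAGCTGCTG
The files place the 60-base Krtap4-13 probe on a span of 5529 bases on chromosome 11, so its position is not that of a single stretch. On either strand, the unit stood in 7 of the 58 Krtap probes (12.1%) and in 0.484% of all probes. Of those 7 probes, 5 were above background in all 6 tumours.

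Subfamily 9, encoded in the same cluster, had 1 gene above background in all 6 tumours. Krtap9-1 measured 0.09, 1.80 and -2.30 against -2.43, -1.86 and -1.86, with WT3 among the knockout tumours (difference -1.91, SE 0.94, limma adjusted p = 0.445). Krtap9-3 was above background in WT1, WT2 and KO2 (difference -3.21). Krtap9-5 was above background in WT1 and WT2 and was at least 1.52-fold lower.

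Subfamilies 16, 28 and 31 were left without a class. Krtap28-13, on chromosome 1, measured 1.13, 3.03 and -2.99 against -3.20, -3.56 and -3.76. It was above background in all 6 tumours without overlap (difference -3.90, SE 1.39, limma adjusted p = 0.323), and without WT3 its difference was -5.58 (SE 0.56). Its neighbour Krtap28-10 was above background in WT1 and WT2 only and was at least 1.11-fold lower. Krtap16-3 measured 3.38, 5.30 and -1.76 against -3.75, 0.69 and -4.51, with KO2 above WT3 (difference -4.83, SE 2.06, adjusted p = 0.385). Its probe shares a run of 25 bases with that of Krtap19-2.
Krtap16-3 (chr16:88962906-88962965, mm9): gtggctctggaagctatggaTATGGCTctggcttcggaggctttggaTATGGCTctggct
The other member of that number, Krtap16-1, lies on chromosome 11 and stayed between -4.13 and -3.07 (difference 0.04, SE 0.28, adjusted p = 0.966; the sign turned under 4 other processing settings, and without WT3 or KO3). Krtap31-1 measured -1.83, -0.12 and -3.17 against -2.31, -2.46 and -2.94 (difference -0.86, SE 0.71, adjusted p = 0.656), and Krtap31-2, above background in WT1 and WT2 only, was at least 1.69-fold lower.

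By position, the 55 genes lie on 5 chromosomes (mm9). The 23 genes of chromosome 16, which holds all the high glycine-tyrosine genes, had a median difference of -3.45, and the 22 of chromosome 11 one of -2.86. The medians were -1.54 for the 5 genes of chromosome 7, -0.14 for the 3 of chromosome 10 and -3.16 for the 2 of chromosome 1. Of the 10 genes at an unadjusted p under 0.05, 8 lie on chromosome 16 and 0 on chromosome 11. On these chromosomes 12 and 9 genes were tested. Krtap8-1, Krtap11-1, Krtap19-2, Krtap21-1 and Krtap22-2, all on chromosome 16, were tested only through the wild-type tumours. The medians by chromosome and by class share genes and are not separate results.

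Within the tumours labelled wild-type the family kept a nearly constant step. Over the 52 genes above background in both, WT2 was higher than WT1 by a median of 1.62 (quartiles 1.43 and 1.78), and 42 genes lay between 1 and 2. The step ranged from -0.39 in Krtap4-6 to 3.20 in Krtap31-2. It was alike in the classes, at 1.57 for high glycine-tyrosine, 1.58 for high sulfur and 1.64 for ultrahigh sulfur genes. KO2 against WT1 was more uneven. Over 41 genes KO2 was lower by a median of 2.11, with an SD over genes of 1.44 against 0.65 for the WT2 step. The difference ran from -6.01 in Krtap22-2 to 0.50 in Krtap10-4, with medians of -3.14 over 12 high glycine-tyrosine, -2.05 over 12 high sulfur and -1.98 over 13 ultrahigh sulfur genes. Each of these steps compares single tumours and has no replicate.

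**Figure D4:**
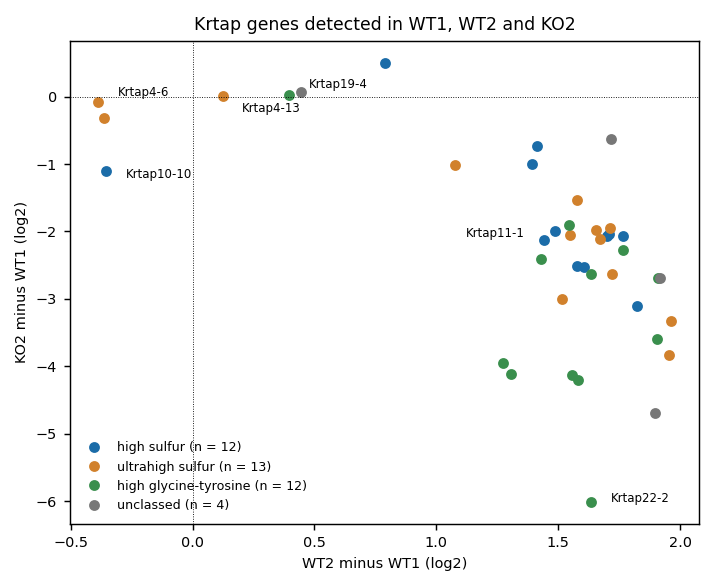
Each point is a Krtap gene above background in WT1, WT2 and KO2 (41 genes, coloured by class); the horizontal axis is WT2 minus WT1 and the vertical axis KO2 minus WT1, both in log2 units. Most points lie between 1 and 2 on the horizontal axis and spread from about 0 down to -6.01 (Krtap22-2) on the vertical axis, and a small cluster with Krtap4-6, Krtap4-13 and Krtap19-4 lies near 0 vertically.

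Among KO2 and WT3, the tumours at intermediate and low level, the medians differed by class and by detection. Over the 28 genes above background in both, KO2 was higher by a median of 0.50. The median was 2.24 over 6 high sulfur genes, 0.30 over 9 high glycine-tyrosine genes and 0.20 over 10 ultrahigh sulfur genes. It was 2.33 over the 8 genes not above background on all 6 arrays. These compare 2 single tumours over few genes. Krtap13-1, with 2.89, was at the upper end and Krtap22-2, with -1.24, at the lower.

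The probes of the genes above background everywhere differed in composition from the others. Of 25 Krtap probes with at least 50% G and C, 16 (64%) were above background in all 6 tumours, against 5 of 33 (15.2%) of those with less. Over all probes of the array these shares were 55.7% and 47.1%. Of the 16 probes holding either repeated unit, 9 were above background in all 6 tumours, against 12 of the 42 holding neither. The part of probe composition in the flat values was not tested.

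Promoters of the family often held the letters of a TATA box, TATAAA, near the start. RefSeq promoters (GRCm38.p6) were matched by symbol for 49 of the 55 genes. These letters, searched on both strands of the 250 bases before the start, stood in 39 of the 49 (79.6%) and in 12.4% of all 32851 promoters. Within the last 50 bases, on the gene's strand, it stood in 32 of the 49 (65.3%) and in 2.63% of all promoters, beginning 27 to 49 bases before the start (median 31). The letters TTAATNAA, TTAATNAG, TTAATNGA, TTAATNGG, TTTATNAA, TTTATNAG, TTTATNGA and TTTATNGG, forms of the site of HOXC13, a regulator of hair keratin genes, stood in 26 (53.1%) against 17.2% of all promoters on both strands. CTTTGAA or CTTTGTT, forms of the LEF1 site, stood in 12 (24.5%) against 9.17%. Each form beginning with TTTAT can overlap a TATA box when both strands are searched, so the HOXC13 and TATA shares are not independent. The 4 promoters below cover 120 bases each, ending at the base before the start, 5′ to 3′ on the gene's strand, with TATAAA in capitals; they pair the gene with the smallest p, the gene with the largest bound, Krtap11-1 and the flat gene Krtap4-13.
Krtap22-2 (chr16:89010760-89010879, minus strand): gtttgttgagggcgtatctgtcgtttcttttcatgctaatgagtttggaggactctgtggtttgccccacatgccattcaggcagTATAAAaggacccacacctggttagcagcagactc
Krtap17-1 (chr11:99993995-99994114, minus strand): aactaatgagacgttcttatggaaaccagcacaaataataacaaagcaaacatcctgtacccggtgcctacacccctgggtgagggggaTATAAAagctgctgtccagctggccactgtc
Krtap11-1 (chr16:89571184-89571303, minus strand): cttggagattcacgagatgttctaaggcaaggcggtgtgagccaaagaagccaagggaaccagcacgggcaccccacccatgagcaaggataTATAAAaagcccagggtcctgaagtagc
Krtap4-13 (chr11:99809897-99810016, minus strand): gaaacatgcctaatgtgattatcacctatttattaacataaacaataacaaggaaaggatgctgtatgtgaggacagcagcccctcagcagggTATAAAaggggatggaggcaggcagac
All 4 hold the TATA box 27 to 35 bases before the start, the flat gene included. The genes Krtap31-1 and Krtap31-2, which differed in detection (all 6 tumours against WT1 and WT2), have these stretches:
Krtap31-1 (chr11:99907800-99907919, plus strand): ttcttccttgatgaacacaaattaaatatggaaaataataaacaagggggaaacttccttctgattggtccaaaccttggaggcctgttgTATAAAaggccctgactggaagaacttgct
Krtap31-2 (chr11:99936171-99936290, plus strand): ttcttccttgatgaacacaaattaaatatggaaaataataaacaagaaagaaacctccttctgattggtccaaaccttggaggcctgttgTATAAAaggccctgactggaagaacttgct

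Other genes of the follicle were read from fixed lists. Of all tested features, 0.162% passed the adjusted threshold. At an unadjusted p under 0.05 with at least a 2-fold difference, 2.38% were lower and 2.05% higher. Hair shaft keratins, the filament partners of these proteins, had a median difference of -2.29 over 16 genes, with 14 lower by the means, 0 past the adjusted threshold and 4 lower at an unadjusted p under 0.05 with at least a 2-fold difference. Krt33a measured 2.44, 4.19 and -2.18 against -6.05, -0.15 and -6.20, with KO2 above WT3 as in Krtap11-1 (difference -5.62, SE 2.14, limma adjusted p = 0.347). Krt35 and Krt36 differed by -5.11 (SE 1.66, adjusted p = 0.296) and -1.46 (SE 0.41, adjusted p = 0.254). The step from WT1 to WT2 had a median of 1.77 in the keratins, beside 1.62 in the Krtap genes. Genes of the inner root sheath, the layer that moulds the growing shaft, and of the companion layer beside it had a median difference of -2.22 over 12 genes, 9 lower and 3 higher by the means, with 0 past the threshold and 4 lower at the unadjusted one. These 4, Krt25, Krt27, Krt28 and Krt71, were tested only through the wild-type tumours. So were Krt33a, Krt33b and Krt35 among the hair shaft keratins, so both counts support nothing alone. Krt28, Krt71 and Krt25 differed by -5.45 (SE 1.24, adjusted p = 0.201), -6.56 (SE 1.64, adjusted p = 0.228) and -5.96 (SE 1.57, adjusted p = 0.236). The 3 higher ones were Krt75 (1.15) of the companion layer, Gata3 (0.56) and Krt74 (0.35), which was above background in no tumour. In Krt28, Krt71 and Krt25, unlike most Krtap genes, WT3 (0.74, 1.37 and -0.34) lay above all 3 knockout tumours. In Krt27, WT3 (-1.51) lay below KO2 (-1.15).

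Of 10 other hair shaft proteins and enzymes, 6 were lower, with a median of -0.43 and 0 past the threshold. S100a3, a calcium-binding protein of the cuticle, differed by -2.98 (SE 0.98, limma adjusted p = 0.299), Gprc5d by -3.59 (SE 1.43, adjusted p = 0.362) and Selenbp1 by -0.42 (SE 0.16, adjusted p = 0.357). The 12 regulators had a median of -0.08. Hoxc13 measured -1.51, -0.04 and -2.64 against -3.23, -1.19 and -4.11 (difference -1.45, SE 0.90, adjusted p = 0.544), and Lef1 differed by -1.59 (SE 0.68, adjusted p = 0.385). Foxn1, which hair shaft differentiation requires, differed by -0.01 (SE 0.29, adjusted p = 0.993) and Msx2 by -0.11 (SE 0.40, adjusted p = 0.932). Markers of follicle stem cells and outer root sheath had a median of -0.67 and those of bulb melanocytes one of -0.37, both with 0 past the threshold. Melanocyte genes, like Krtap genes, were highest among the knockout tumours in KO2, for 6 of 7.

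Markers of other tissues also differed between the genotypes by their means, in other orders among the tumours. The 10 genes of the interfollicular epidermis were all higher in the tumours labelled knockout (median 0.54), with all 10 above background on every array and 0 past the adjusted threshold. Their mean level was 4.99 to 5.58 in the wild-type and 5.84 to 6.14 in the knockout tumours. The 10 sebaceous gland genes were all lower (median -2.33, 0 past the threshold), with a mean level of 1.56 to 4.43 against 0.29 to 0.78. The 8 skeletal muscle genes were all lower (median -5.18, 1 past the threshold) and 7 of 8 fat genes were lower (median -3.98, 3 past the threshold). At an unadjusted p under 0.05 with at least a 2-fold difference, 8 sebaceous gland, 8 muscle and 5 fat genes were lower. By the same rule 2 epidermis genes were higher. Muscle and fat genes above background in no knockout tumour were tested only through the wild-type tumours. So were the sebaceous gland gene Mc5r and the fat gene Cidec. Muscle averaged -0.61, 3.85 and 0.99 in WT1, WT2 and WT3 and -4.60 to -4.22 in the knockout tumours, and 3 of its 8 genes were above background in each knockout tumour. Fat averaged 0.88, 1.59 and 0.43 against -2.61 to -2.45. In WT3 the muscle and fat means thus lay with the other wild-type tumours while the Krtap mean lay with the knockout tumours, and in KO2 they lay with the other knockout tumours while the Krtap mean was higher. The part of tissue makeup in the Krtap differences was not tested.

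**Figure D5:**
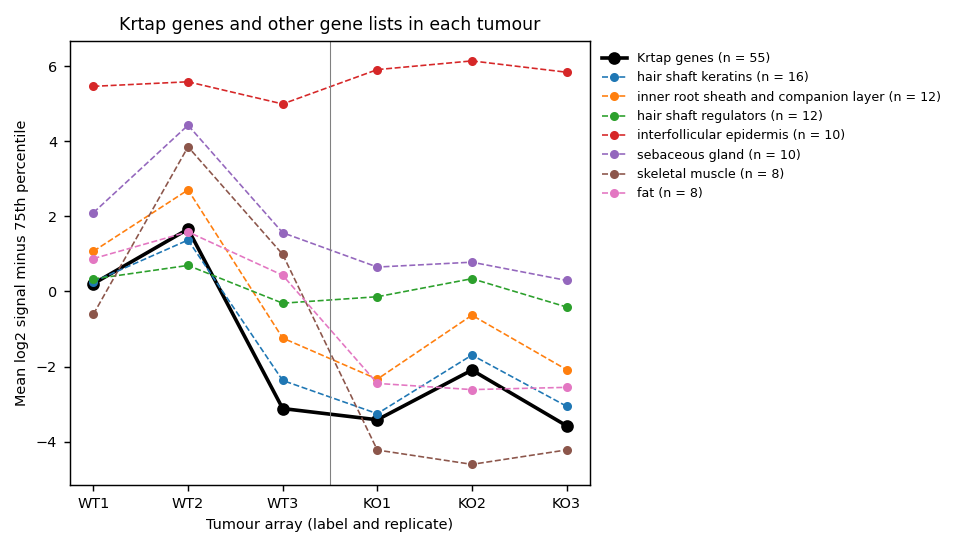
Mean log2 signal minus the array's 75th percentile in each tumour for the 55 Krtap genes (black) and 7 fixed gene lists; lines only join the values of a list, since tumours have no order. Krtap genes, hair shaft keratins and inner root sheath genes peak in WT2, are low in WT3 and stand higher in KO2 than in KO1 or KO3, whereas muscle and fat stay above 0 in WT3 and are low in all 3 knockout tumours.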

How the data were processed

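The files deposited by the authors hold linear spot intensity with background subtraction and spatial detrending already done, according to their headers. The extraction software named in the submitters' processing notes is Agilent Feature Extraction, version 10.7.1.1. The series value table, which the authors deposited as log2 values, served as an alternative; its columns matched the arrays' log2 processed signals (r between 0.99945 and 0.99997) with medians of 4.969, so its direction is settled, genes are not centred, and its tool is not given in the sources used. Probe positions are on mm9, per the file headers.

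Spots with outlier flags, 68 to 184 on each array, were dropped before averaging over a probe; 0 spots were saturated. Log2 values were set against each array's 75th percentile over probes. Probes above background in all 3 tumours of at least 1 genotype were tested, 1 (the brightest) per gene. Names came from RefSeq (GRCm38.p6): 43738 of 56605 probes matched by accession, symbol or synonym, and all 55 Krtap names matched. Genotypes were compared with limma 3.58.1 in R 4.3.3 (lmFit, eBayes, two-sided, Benjamini-Hochberg over all features, threshold 0.05). A bound ("at least") sets the wild-type mean against, per knockout array, whichever is higher of the probe's signal and the lowest one above background.

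The members and lists were chosen with earlier results of these data known. Named genes were, per subfamily, the 3 members with the smallest p among those above background on at least 2 arrays, every member above background on 2 or more knockout arrays, the 3 genes of each list with the smallest p, and Hoxc13, Foxn1, Msx2 and Lef1. Replicate numbers do not pair the samples by the labels. Classes are textbook ones. Alternatives covered background correction (normexp, offset 50), scaling, filter, probe choice, moderation, weights, slide column and row, replicate block and each sample left out.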

Additional observations from a re-analysis of the deposited data

How the results depend on the processing

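Over 21 alternatives, 18 of the 30 tested Krtap genes kept their direction in every one that could test them, and 0 passed the adjusted threshold except in the fit without WT3 (0 to 5 with a sample left out). Differences near 0 reversed: Krtap10-4 to -0.039 with the slide column, Krtap16-1 to -0.0069 with quantile normalization, -0.00021 with median scaling, -0.0080 with the series value table and -0.057 with the slide column, and Krtap4-13 to 0.0071 with array weights. With a sample left out, ranges were -0.46 to 0.11 (Krtap10-10), -0.18 to 0.73 (Krtap10-4), -2.58 to 0.25 (Krtap12-1), -0.23 to 0.29 (Krtap16-1), -0.30 to 0.040 (Krtap19-4), -0.038 to 0.030 (Krtap4-13), -0.080 to 0.13 (Krtap4-6) and -0.12 to 0.093 (Krtap5-5). The slide row as a block, added after seeing the data, reads KO1 minus WT3 alone. It turned Krtap10-10 to 1.04, Krtap12-1 to 2.64, Krtap3-2 to 0.71, Krtap31-1 to 0.86, Krtap4-13 to 0.025, Krtap4-6 to -0.15, Krtap5-3 to 0.63, Krtap5-4 to 0.74 and Krtap5-5 to 0.16. With it 0 features passed the threshold, 1390 were at the unadjusted one, 2 of them Krtap genes, and 0 muscle and 0 fat genes passed. The Krtap median was 0.14, the hair keratin median -0.0793 and the inner root sheath median 0.18. Subfamily medians that moved were 0.40 (1), 0.33 (2), 0.25 (3), -0.049 (4), 0.16 (5), 0.92 (7), -2.37 (8), 1.24 (10), 2.64 (12), 0.33 (14), 0.32 (15), -1.74 (17), -0.57 (19), -0.98 (20), -4.21 (22), 2.02 (24), 0.56 (26), 0.039 (28) and 0.66 (31). The causes of the other changes were not tested.

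Krtap genes at an unadjusted p under 0.05 with at least a 2-fold difference (10) numbered 6 when a probe had to be above background on every array, 19 with the slide column, and 3 to 45 with a sample left out. With the replicate number as a replicate block they numbered 16. Same-numbered samples deviated together with correlations of 0.06, 0.26 and 0.14, which with 3 arrays per genotype cannot decide whether they are paired. All features past the threshold (32) numbered 10 (normexp), 18 (no filter), 5 (all 6 arrays), 58 (array weights), 5 (replicate block), 21 (slide column), 18 (dim values at the floor) and 13 to 125 (a sample left out). At the unadjusted threshold (874) they numbered 390 (normexp), 1318 (no filter) and 558 (all 6 arrays), and 818 to 1241 with a sample left out. With the filter of all 6 arrays, the median of subfamily 4 was -0.54, of the inner root sheath 0.065, of muscle -2.81 and of fat -0.55, since fewer genes enter. Subfamily 13 was -3.30 with probes above background on at least 2 arrays, which drops Krtap13. With normexp, subfamily 17 was -2.69, subfamily 22 was -4.22 and fat -1.97. Muscle genes past the threshold numbered 0 with normexp, all 6 arrays or the replicate block, 2 with array weights and 0 to 3 with a sample left out; fat genes numbered 1 with normexp or at the floor, 0 with all 6 arrays or the replicate block, and 0 to 3 with a sample left out. The muscle median ran from -6.33 to -3.05 and the Krtap median from -4.41 to -1.48 with a sample left out. Without WT2 or WT3 the remaining 2 wild-type tumours set the spread. Signals below background limit 25 of the 55 genes, which were not tested.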

Other observations

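Besides the 55 genes, 7 probes carry a description as a keratin-associated protein but another name in the files. All 7 were higher in WT2 than in WT1, and 6 were lower in the tumours labelled knockout by the means. The probe described as 19-9A measured 2.71, 4.11 and 0.42 in WT1, WT2 and WT3 and 0.52, 0.87 and 0.41 in KO1, KO2 and KO3, with WT3 among the knockout tumours. Gm41515, described as 19-1-like, measured 3.67, 5.58 and -0.74 against -2.68, 1.08 and -1.44, and KO2 lay above WT3. LOC102637192, described as 20-2-like, measured 4.06, 5.60 and -0.50 against -2.59, -0.62 and -2.92. Gm39115, described as 5-5-like, measured 1.18, 3.32 and -3.41 against -3.25, -3.39 and -3.50, unlike Krtap5-5 itself, which differed by -0.04. The probe described as 6-3 was above background in 2 tumours, and its difference was -2.40. Gm38522, described as 9-1-like, was the 1 probe that was higher (difference 0.54); the files place it on chromosome 17, where no Krtap gene of the family lies.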
